A study of Rattus norvegicus with 3 samples.

Results

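The insulin-like growth factor (IGF) system was described through 10 genes: the ligand gene Igf1, the receptor genes Igf1r and Igf2r, and the binding protein genes Igfbp1 to Igfbp7. They were chosen by name, as the genes whose probe sets on a rat expression array carry one of these symbols and no other. All 10 were found among the 14218 genes with such probe sets, and they had 20 probe sets between them. Cardiomyocytes were isolated by enzyme digestion from fetal Wistar rats, plated for 48 hours and kept for 24 hours in 1 of 3 media. The groups were medium conditioned by skeletal myoblasts, medium conditioned by cardiac fibroblasts, and fresh culture medium as the control, with 1 Affymetrix array each. The study concerns what myoblasts release and how it protects cardiomyocytes from oxidative stress. Cells were labelled only as isolated cardiomyocytes, and the labels give no purity. Since each medium had 1 array, the differences have no replicates behind them and were not tested, and all values describe these 3 cultures only.

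IGF-I and IGF-II are peptides related to insulin that drive growth and survival through the receptor tyrosine kinase encoded by Igf1r, which in the heart signals mainly through PI3-kinase and Akt. The receptor encoded by Igf2r does not signal that way: it takes up IGF-II for degradation and carries lysosomal enzymes that bear mannose 6-phosphate. The binding proteins hold IGFs in body fluids and matrix, prolong their life and limit access to the receptor, and proteases that cut them release the ligand.

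Values were taken as log2 values, on which a difference of 1 is 2-fold. The log base rests on the processing method named, and the submitters' notes do not state it. Where a probe set has values on 2 arrays, 1 is above and 1 below 0 and the third array is blank, which fits centring on the median array. Levels of different genes cannot be set against each other on such a scale. For the same reason the presence of cardiomyocyte markers could not be checked as a level. Blank cells were read as 0, a reading the sources used here do not give. Under it 1627 of the 14218 genes were at 0 on all arrays, and the shares of all genes given below include them. Centring leaves 1 blank per probe set, whereas 8002 of 31099 probe sets had 2 blanks and 5980 had 3, and what the further blanks stand for is not known. Values were present for 11732 probe sets on the myoblast array, 17864 on the fibroblast array and 12640 on the fresh medium array. Among the 10 genes this touches Igfbp4, Igfbp6 and a pair of Igfbp5 probe sets. The closest measured guide to technical error was a set of 42 probe sets for control transcripts meant to be added to each sample in equal amounts. Their differences ran from -0.01 to 0.66 between myoblast and fresh medium, from -0.68 to 0.59 between fibroblast and fresh medium, and from -0.48 to 1.02 between myoblast and fibroblast medium. Between myoblast and fresh medium nearly all of that range lay above 0, with a median of 0.29. The 2 kinds of control also stood apart, with medians of 0.40 for hybridisation and -0.27 for poly-A controls between fibroblast and fresh medium. Fewer cells of a type and less RNA per cell cannot be told apart in such bulk samples.

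In the rat, Igfbp2 and Igfbp5 lie on chromosome 9 with 0 protein-coding genes between them, and Igfbp1 and Igfbp3 lie next to each other in the same way on chromosome 14. The 250 bases before the annotated start of 3 of these genes are shown, from RefSeq (build GRCr8), read 5′ to 3′ on the gene's own strand: Igfbp2 because its value differed most, Igfbp5 because it is the neighbour, and Igfbp1 because its promoter holds a textbook insulin-responsive element. All 10 genes matched a RefSeq promoter. Igfbp2 lies on the plus strand (chr9:81864561-81864810), Igfbp5 on the minus strand (chr9:81914188-81914437) and Igfbp1 on the plus strand (chr14:86261027-86261276). Capitals mark matches, on either strand, to 4 motifs that do not overlap here.
Igfbp2: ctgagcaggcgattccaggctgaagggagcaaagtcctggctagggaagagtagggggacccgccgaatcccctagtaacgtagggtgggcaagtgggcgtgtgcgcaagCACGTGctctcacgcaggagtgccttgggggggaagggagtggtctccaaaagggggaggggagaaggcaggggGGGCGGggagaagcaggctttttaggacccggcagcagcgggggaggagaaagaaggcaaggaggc
Igfbp5: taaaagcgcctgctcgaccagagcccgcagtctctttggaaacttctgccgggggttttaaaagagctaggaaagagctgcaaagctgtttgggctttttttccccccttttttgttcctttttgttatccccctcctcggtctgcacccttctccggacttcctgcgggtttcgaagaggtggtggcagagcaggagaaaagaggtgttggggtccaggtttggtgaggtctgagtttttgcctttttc
Igfbp1: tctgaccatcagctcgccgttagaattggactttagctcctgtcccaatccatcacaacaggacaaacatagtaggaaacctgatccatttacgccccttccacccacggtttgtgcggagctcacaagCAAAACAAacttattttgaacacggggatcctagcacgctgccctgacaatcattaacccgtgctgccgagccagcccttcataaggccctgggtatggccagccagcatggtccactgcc

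The motif GGGCGG, the GC box, is held by 30.5% of all 33469 rat promoters in the same 250-base window. It is held by 4 of the 10 genes, namely Igf1r, Igf2r, Igfbp2 and Igfbp7. The 33469 promoters were not selected by gene type, so the 10 protein-coding genes were not set against protein-coding promoters alone. The E-box CACGTG is held by 5.59% of promoters and by 3 of the genes, Igf1r, Igf2r and Igfbp2. The motif CAAAACAA, which belongs to the insulin-responsive element of the liver Igfbp1 gene, is held by 1.94% of promoters and by 2 of the genes, Igfbp1 and Igf1. It spans the bases 121 to 114 before the Igfbp1 start. The motif TATAAA is held by 12.9% of promoters and, among the genes, by Igfbp4 alone. None of these letters occurs in the Igfbp5 window. A match is a description of sequence and not a bound site.

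The media were first compared over the 10 genes together. Under fibroblast medium against fresh medium, 1 of 10 genes was at least 2-fold higher, where 4.26% of all 14218 genes were, and 0 of 10 were at least 2-fold lower, where 2.60% of all genes were. Under myoblast medium against fresh medium, 0 of 10 were 2-fold higher and 0 of 10 lower, against 1.35% and 0.844% of all genes. Between myoblast and fibroblast medium, 0 of 10 were 2-fold higher and 1 of 10 was 2-fold lower in myoblast medium, against 2.12% and 3.94% of all genes. The gene past 2-fold was Igfbp2 in both comparisons with fibroblast medium, which share that array. With so few genes, counts of 0 or 1 of 10 are close to the background shares.

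The median difference of the 10 genes was -0.20 for myoblast minus fresh medium, 0.04 for fibroblast minus fresh medium and -0.34 for myoblast minus fibroblast medium, with an all-gene median of 0.00 in each. For myoblast minus fresh medium, 7 genes lay below 0, 1 above and 2 at 0, all between -0.44 and 0.01. The 2 at 0 were Igfbp4 and Igfbp6, for which both arrays were blank. The 7 genes below 0 lay also below the lowest control transcript, as did 38.1% of all genes. At 1.5-fold, 4 of 10 genes passed for fibroblast medium against fresh medium, where 16.1% of all genes did: Igfbp2 and Igfbp7 were higher and Igf2r and Igfbp4 lower. The same 4 passed for myoblast against fibroblast medium, where 15.0% of all genes did, and 0 of 10 passed for myoblast against fresh medium, where 6.63% did.

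**Figure D1:**
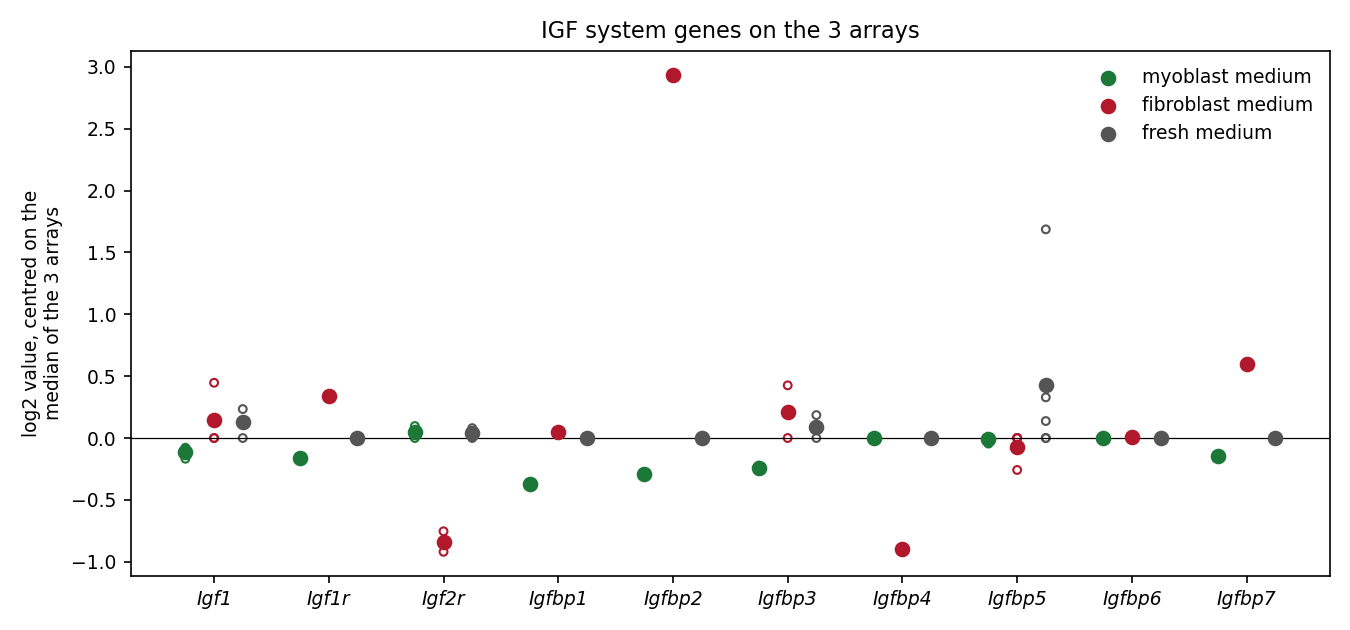
Centred log2 values of the 10 IGF system genes (horizontal axis) on the arrays for myoblast, fibroblast and fresh medium; filled points are the mean of a gene's probe sets and open points are single probe sets. Igfbp2 stands at 2.94 in fibroblast medium, Igf2r and Igfbp4 are lowest there, and a single Igfbp5 probe set reaches 1.69 in fresh medium.

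Igf1, the gene of the ligand made by many tissues under growth hormone, showed little difference. Its mean over 3 probe sets was -0.11 in myoblast medium, 0.15 in fibroblast medium and 0.13 in fresh medium. The myoblast array was the lowest of the 3 for each probe set, by 0.17, 0.22 and 0.33 below fresh medium. For fibroblast minus fresh medium the probe sets differed in sign, at 0.45, -0.14 and -0.23, so that the mean difference of 0.02 covers a gap of 0.68 between them. Of 4526 genes with several probe sets, 17.8% had a gap as wide in that comparison.

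Igf1r, the signalling receptor, was -0.16 in myoblast medium, 0.34 in fibroblast medium and 0.00 in fresh medium. Both probe sets gave the same order, with fibroblast medium highest and myoblast medium lowest, and they differed by only 0.02 for fibroblast minus fresh medium (0.33 and 0.35). The difference of 0.34 for fibroblast minus fresh medium lay within the range of the added control transcripts. That of -0.16 for myoblast minus fresh medium lay below their lowest, -0.01, as did 38.1% of all genes. That of -0.50 for myoblast minus fibroblast medium lay just below their lowest, -0.48, as did 10.3% of all genes. Differences as large or more in size were seen in 36% and 18.5% of all genes.

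Igf2r, the receptor that clears IGF-II and sorts lysosomal enzymes, was 0.05 in myoblast medium, -0.84 in fibroblast medium and 0.04 in fresh medium. The fibroblast array stood below the others and the others were level. Igf2r was lower by 0.88 on the log2 scale in fibroblast than in fresh medium (1.84-fold), and its probe sets gave -0.83 and -0.92. A difference of that size or more was seen in 8.64% of all genes. For myoblast minus fibroblast medium its 2 probe sets gave 0.75 and 1.02, and the second of these was past 2-fold, as were 2.30% of all 20832 single-symbol probe sets in that direction. The gene mean was 0.89, within the largest control transcript difference of 1.02 for that pair of arrays.

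**Figure D2:**
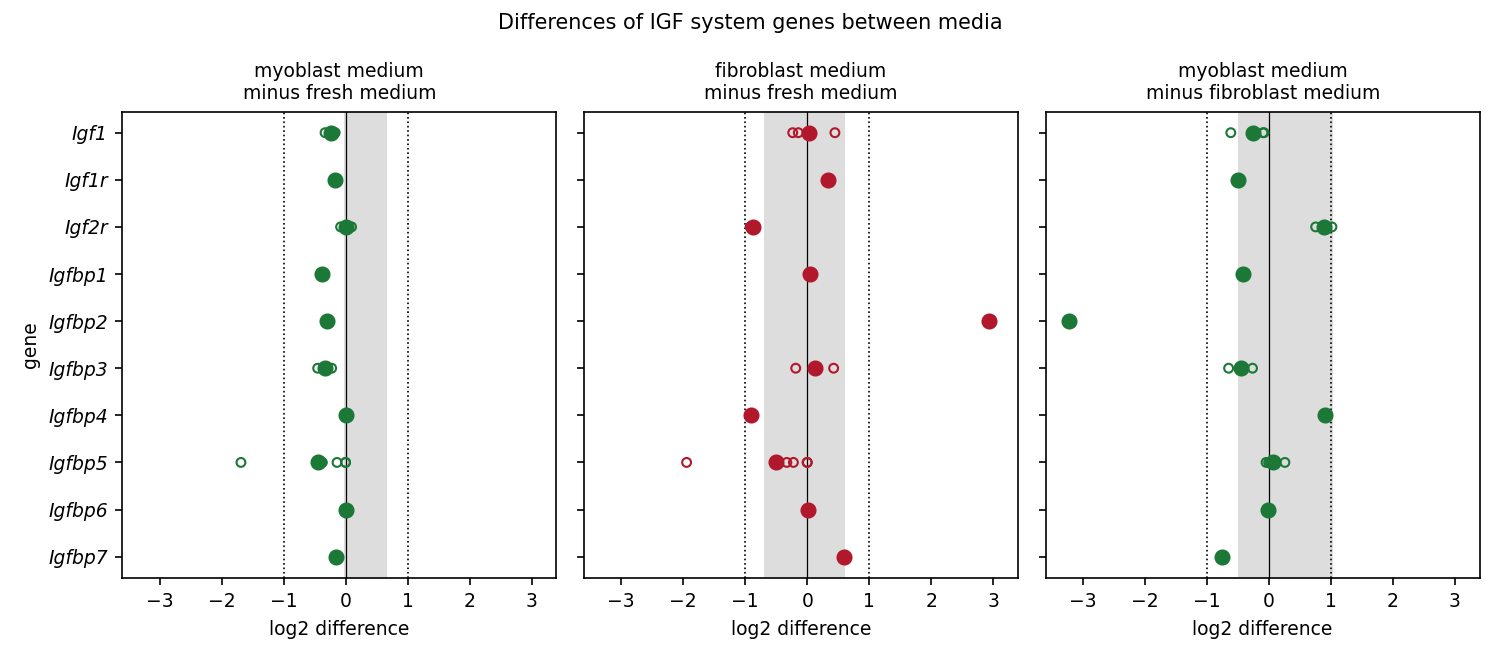
Log2 differences of the 10 genes for the 3 pairs of media; filled points are gene means, open points single probe sets, the grey band spans the added control transcripts and dotted lines mark 2-fold. In myoblast minus fresh medium 7 of 10 gene means lie below the band, down to -0.44 for Igfbp5, as do 38.1% of all genes. In fibroblast minus fresh medium Igfbp2, at 2.94, and Igfbp7 lie above it, as do 9.02% of all genes. Igf2r and Igfbp4 lie below it there, as do 5.36% of all genes, and so does 1 Igfbp5 probe set at -1.94. In myoblast minus fibroblast medium Igf1r, Igfbp2 and Igfbp7 lie below it, as do 10.3% of all genes.

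Igfbp2 encodes a binding protein abundant in fetal serum, which carries an integrin-binding motif besides its IGF site. Its only probe set was at -0.29 in myoblast medium, 2.94 in fibroblast medium and 0.00 in fresh medium. The fibroblast array was far above the others, which lay close together. Igfbp2 was higher by 2.94 in fibroblast than in fresh medium (7.66-fold), rank 52 from the highest of 14218 genes, and lower by 0.29 in myoblast than in fresh medium. For myoblast minus fibroblast medium it was at -3.23 (9.38-fold lower in myoblast medium), rank 46 from the lowest. The largest difference among the control transcripts was 0.68 in size in the first of these comparisons and 1.02 in the last. No second probe set was there to check it.

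On the same fibroblast array, 10 of 12 macrophage markers were 2-fold or more above fresh medium and 0 of 12 below it. Their median difference was 2.04, and their mean centred value was 2.49 in fibroblast medium and -0.09 in fresh medium. Among the endothelial markers, 9 of the 11 measured lay 2-fold or more below fresh medium and 0 above it. Their median difference was -2.83, and their mean centred value was -1.88 in fibroblast medium and 0.72 in fresh medium. For cardiomyocyte markers the median was -0.45 and 4 of 14 were 2-fold lower or more. For fibroblast markers it was 0.09, and 1 of 12 was 2-fold higher and 2 were 2-fold lower. Of the smooth muscle and pericyte markers 3 of 10 were 2-fold higher or more and 0 lower, with a median of 0.39. Notch3, among these 10, was blank throughout. Of the epicardial and mesothelial markers 4 of 9 were higher and 1 lower, with a median of 0.91. These counts stand against 4.26% of all genes higher and 2.60% lower. Whether cells of these types had a part in the Igfbp2 value was not tested.

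The genes with the values most like those of Igfbp2, by Euclidean distance over the 3 arrays, were Slc15a3, a peptide and histidine transporter gene of lysosomes, at 0.06, the chemokine gene Cxcl2 at 0.07, and Ctss, the gene of the lysosomal protease cathepsin S, at 0.07. Cxcl2, for instance, was at -0.29 in myoblast medium, 2.87 in fibroblast medium and 0.00 in fresh medium. These 3 were the only genes within 0.1 of Igfbp2. With 3 arrays such closeness is a description of 3 numbers.

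Igfbp4, whose product holds IGFs until the protease PAPP-A cuts it, had a value on 1 array only. It was at -0.90 in fibroblast medium, and the cells for myoblast and fresh medium were blank. Its difference from fresh medium (1.87-fold lower) therefore rests on reading that blank as 0.00. Of all genes, 8.23% had a difference of that size or more in fibroblast against fresh medium. Its difference exceeded the largest control transcript difference of 0.68 by little, and no second probe set was there to check it. The genes closest in value to Igfbp4 were Toe1, Hadhb, which encodes a subunit of the mitochondrial trifunctional protein of fatty acid oxidation, and Prpf39, a splicing factor gene, at distances of 0.01, 0.03 and 0.03, among 11 genes within 0.1.

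Igfbp5 encodes a binding protein that sticks to extracellular matrix, and its 5 probe sets disagreed in size. Probe set 1370960_at was at 0.00 in myoblast medium, -0.26 in fibroblast medium and 1.69 in fresh medium. Fresh medium stood far above both conditioned media, with differences of -1.69 for myoblast minus fresh medium (3.22-fold lower) and -1.94 for fibroblast minus fresh medium (3.85-fold lower). It was the only one of the 20 probe sets at least 2-fold lower in myoblast than in fresh medium, where 0.874% of all single-symbol probe sets were, and the only one lower in fibroblast than in fresh medium, where 2.83% were.

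The other Igfbp5 probe sets showed far less. One gave -0.37 for myoblast minus fresh medium and -0.33 for fibroblast minus fresh medium, another gave -0.14 and -0.22, and the last pair was blank throughout. The gene mean was -0.01 in myoblast medium, -0.07 in fibroblast medium and 0.43 in fresh medium. Its differences from fresh medium were -0.44 ± 0.71 and -0.50 ± 0.82 (SD over 5 probe sets of 1 array pair, with the blank pair entered as 0). Without the blank pair the differences were -0.73 and -0.83. All probe sets with values put fresh medium highest. The gap between Igfbp5 probe sets was 1.69 for myoblast minus fresh medium and 1.94 for fibroblast minus fresh medium. Its upper end was in each case the blank pair, read as 0. Of 4526 genes with several probe sets, 9 (0.199%), Igfbp5 among them, had a gap as wide in the former comparison, and 1.59% in the latter. Genes were not matched for their number of probe sets, and a gap over 5 tends to be wider than over fewer. The part of the transcript each probe set reads was not analysed here.

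**Figure D3:**
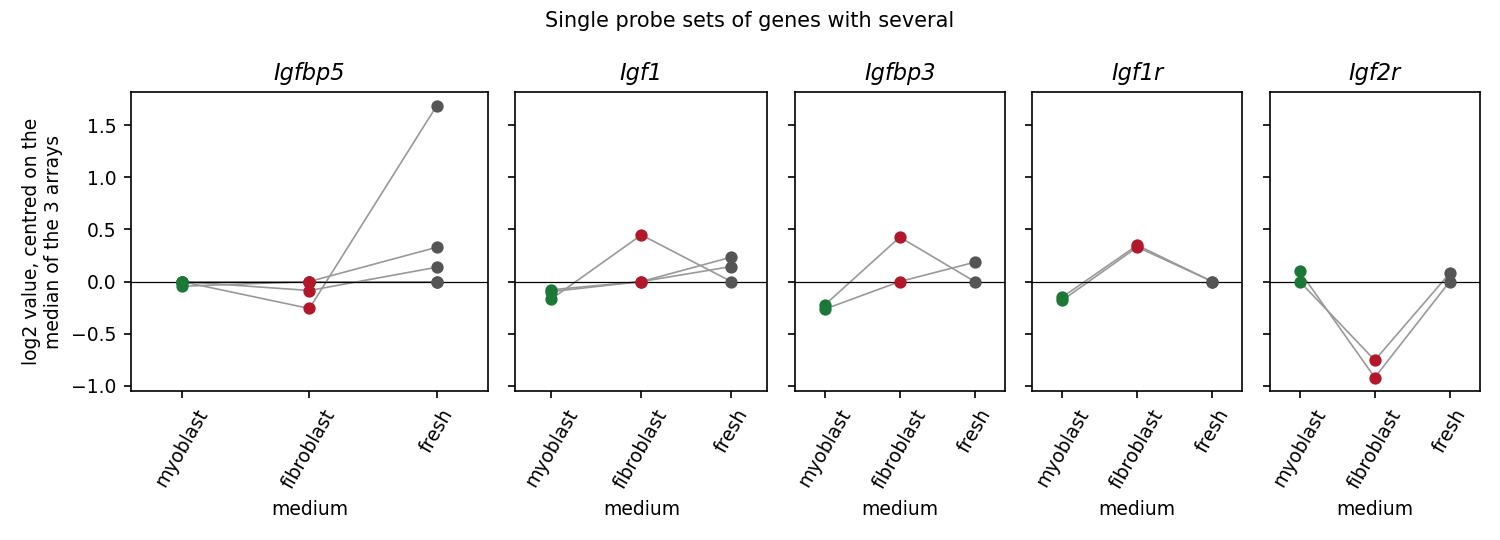
Centred log2 values of single probe sets for the 5 genes with several probe sets and a visible difference; thin lines join values of 1 probe set over myoblast, fibroblast and fresh medium. The Igf1r and Igf2r probe sets nearly coincide, while 1 of 5 Igfbp5 probe sets lies at 1.69 in fresh medium and the others at 0.33 or below.

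Igfbp3, the main IGF carrier of blood, was -0.24 in myoblast medium, 0.21 in fibroblast medium and 0.09 in fresh medium. Both probe sets put myoblast medium lowest, by 0.22 and 0.45 below fresh medium. They differed in sign for fibroblast minus fresh medium, at 0.43 and -0.19. Igfbp1, which insulin represses in liver, was -0.37 in myoblast medium, 0.05 in fibroblast medium and 0.00 in fresh medium. Its difference of -0.37 between myoblast and fresh medium lay below the lowest control transcript, -0.01, and 14.9% of all genes differed as much or more in size.

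Igfbp7 encodes a secreted protein that binds IGFs weakly and lies in vascular matrix. It was -0.15 in myoblast medium, 0.60 in fibroblast medium and 0.00 in fresh medium, so that fibroblast medium was 1.52-fold above fresh medium. That difference just passed the highest control transcript, 0.59, as did 9.02% of all genes. It was smaller in size than the lowest control transcript, -0.68. Igfbp6, whose product prefers IGF-II, could not be compared between media: 1 probe set was blank throughout and the other was 0.01 in fibroblast medium with blanks elsewhere. The order of the 10 genes by their spread over the arrays was Igfbp2 at 3.23, Igfbp4 at 0.90, Igf2r at 0.89, Igfbp7 at 0.75, Igf1r and Igfbp5 at 0.50, Igfbp3 at 0.46, Igfbp1 at 0.42, Igf1 at 0.26 and Igfbp6 at 0.01. Igfbp2 lay 2.33 above the next gene, and the other gaps between neighbours were 0.26 or less. The SD of the control transcripts for fibroblast minus fresh medium was 0.38 over both kinds, and 0.11 for hybridisation and 0.23 for poly-A controls alone.

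Among other ligands, receptors and carriers of the system, few differed by 2-fold. Igf2, the fetal growth factor gene, had a mean difference of -0.14 for myoblast minus fresh medium and -0.62 for fibroblast minus fresh medium over 4 probe sets. A single probe set gave -2.48 for fibroblast minus fresh medium. Another had a value in fresh medium only, which gave -0.02. The remaining pair was blank on both of these arrays and entered the mean as 0.00. The insulin genes Ins1 (-0.24) and Ins2 (-0.35), the insulin receptor gene Insr (-0.08), the related receptor Insrr (0.14) and Igfals (0.13), which encodes the acid-labile subunit of the serum IGF complex, differed little between fibroblast and fresh medium. In myoblast minus fresh medium the same genes lay at -0.09, 0.00, 0.00, -0.03 and 0.10. For Ins2 both of these arrays were blank. The mRNA-binding protein genes Igf2bp1, Igf2bp2 and Igf2bp3 were at 0.36, 0.14 and 0.13 in myoblast minus fresh medium and 0.26, -0.02 and 0.02 in fibroblast minus fresh medium. Igfbpl1 was at -0.18 in both and Kazald1 at -0.56 and 0.28. Of the 12 genes, Esm1, which encodes the endothelial proteoglycan endocan, was the only one whose gene mean was past 2-fold. It was at -1.01 in myoblast minus fresh medium, where 0.844% of all genes were that much lower, and -0.08 in fibroblast minus fresh medium. In the latter comparison 0 of 12 gene means passed, against 4.26% of all genes higher and 2.60% lower. The Igf2 mean stayed short of 2-fold with its blank pair entered as 0.00. Its single probe set at -2.48 was past 2-fold lower, as were 2.83% of all single-symbol probe sets.

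Proteases that cut binding proteins, and their inhibitors, had a median difference of 0.36 for fibroblast minus fresh medium. Of 12 measured, 2 were at least 2-fold higher there and 0 lower, against 4.26% and 2.60% of all genes. Mmp3, the gene of stromelysin, was higher by 2.36 and Timp1, a metalloprotease inhibitor, by 1.95. In myoblast minus fresh medium 1 was 2-fold higher and 1 lower, with a median of 0.11, against 1.35% and 0.844% of all genes. Stc2, whose product inhibits PAPP-A, was higher by 1.44 and Plau, the urokinase gene, was at -1.08. Pappa itself was not analysed here. Between myoblast and fibroblast medium Mmp3 (-2.09), Plau (-1.23) and Timp1 (-1.07) were lower in myoblast medium and 0 of 12 were 2-fold higher, against 3.94% and 2.12% of all genes.

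Partners of the binding proteins at the cell surface and in matrix with probe sets numbered 17, of which Itga5 and Lrp2 were blank throughout. In fibroblast against fresh medium 1 of the 17 was at least 2-fold higher and 1 lower, against 4.26% and 2.60% of all genes. Their median was 0.02. The integrin gene Itgav was higher by 1.31 and Ptprb, a phosphatase gene of endothelium, was at -1.81. None of the 17 was past 2-fold in myoblast minus fresh medium, where 1.35% of all genes were higher and 0.844% lower. Between myoblast and fibroblast medium Ptprb was at 1.64 and Gpc1, a cell-surface heparan sulphate proteoglycan gene, at -1.15, against 2.12% of all genes at least 2-fold higher and 3.94% lower. Itgb3 was at 0.30 and Itgb1 at 0.63 in fibroblast minus fresh medium.

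Genes that act below the IGF receptor were close to the all-gene median. Of 36 with probe sets, Socs1 was blank throughout. In fibroblast against fresh medium 1 of the 36 was at least 2-fold higher and 0 lower, with a median of -0.01. That was no larger a share than the 4.26% and 2.60% of all genes. In myoblast minus fresh medium 0 passed either way, against 1.35% and 0.844% of all genes, with a median of -0.03. The gene past 2-fold was Pik3r1, which encodes the regulatory subunit p85-alpha of PI3-kinase, at 1.07 in fibroblast minus fresh medium and -0.05 in myoblast minus fresh medium. Pik3r1 (-1.12) and Inpp5d (-1.20), the gene of a phosphatase of blood cells that opposes PI3-kinase, were lower in myoblast than in fibroblast medium. Of all genes 3.94% were at least 2-fold lower there.

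FoxO transcription factors are held out of the nucleus by insulin and IGF signalling. Probe sets were there for 22 of their known targets, Igfbp1 and Insr among them, and Pck1, also among the 22, was blank throughout. In fibroblast minus fresh medium 2 were at least 2-fold higher and 3 lower, with a median of -0.08, against 4.26% and 2.60% of all genes. Sod2 was at 1.69 and Bcl6 at 1.33, against the pyruvate dehydrogenase kinase gene Pdk4 at -1.47, the muscle ubiquitin ligase gene Trim63 at -1.12 and Txnip at -1.03. In myoblast minus fresh medium 2 were higher, Bnip3 at 1.52 and Gadd45a at 1.05, and 1 lower, Txnip at -3.68, with a median of -0.09, against 1.35% and 0.844% of all genes. Between myoblast and fibroblast medium 2 were higher, Bnip3 at 1.63 and Pdk4 at 1.35, against 2.12% of all genes. Lower were 3, Txnip at -2.64, Sod2 at -1.58 and Bcl6 at -1.23, against 3.94% of all genes. In myoblast minus fresh medium 6 targets lay above 0 and 15 below, where 39.0% and 40.2% of all genes did. In fibroblast minus fresh medium 9 lay above and 12 below, where 41.0% and 43.1% of all genes did.

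Lysosomal enzymes, cargo of the receptor that Igf2r encodes, were listed with the machinery that tags them with mannose 6-phosphate and with M6pr. The genes of this list were mostly above fresh medium under fibroblast medium. Of 16 measured, 12 lay above 0 and 4 below, where 41.0% and 43.1% of all genes did, with a median of 0.22. At least 2-fold higher was 1 of them, Ctsz, the gene of cathepsin Z, at 2.12, and 0 were lower, against 4.26% and 2.60% of all genes. Between myoblast and fibroblast medium Ctsz was at -2.16, and Nagpa, whose product uncovers the mannose 6-phosphate tag, was just past 2-fold lower in myoblast medium, against 3.94% of all genes that much lower. M6pr, the smaller mannose 6-phosphate receptor gene and itself among the 16, was at 0.22 in fibroblast minus fresh medium, where Igf2r was at -0.88. In myoblast minus fresh medium 0 of 16 passed 2-fold, against 1.35% of all genes higher and 0.844% lower, and the median was -0.09. The higher macrophage markers stood on the same fibroblast array, and their part in the lysosomal values was not tested.

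**Figure D4:**
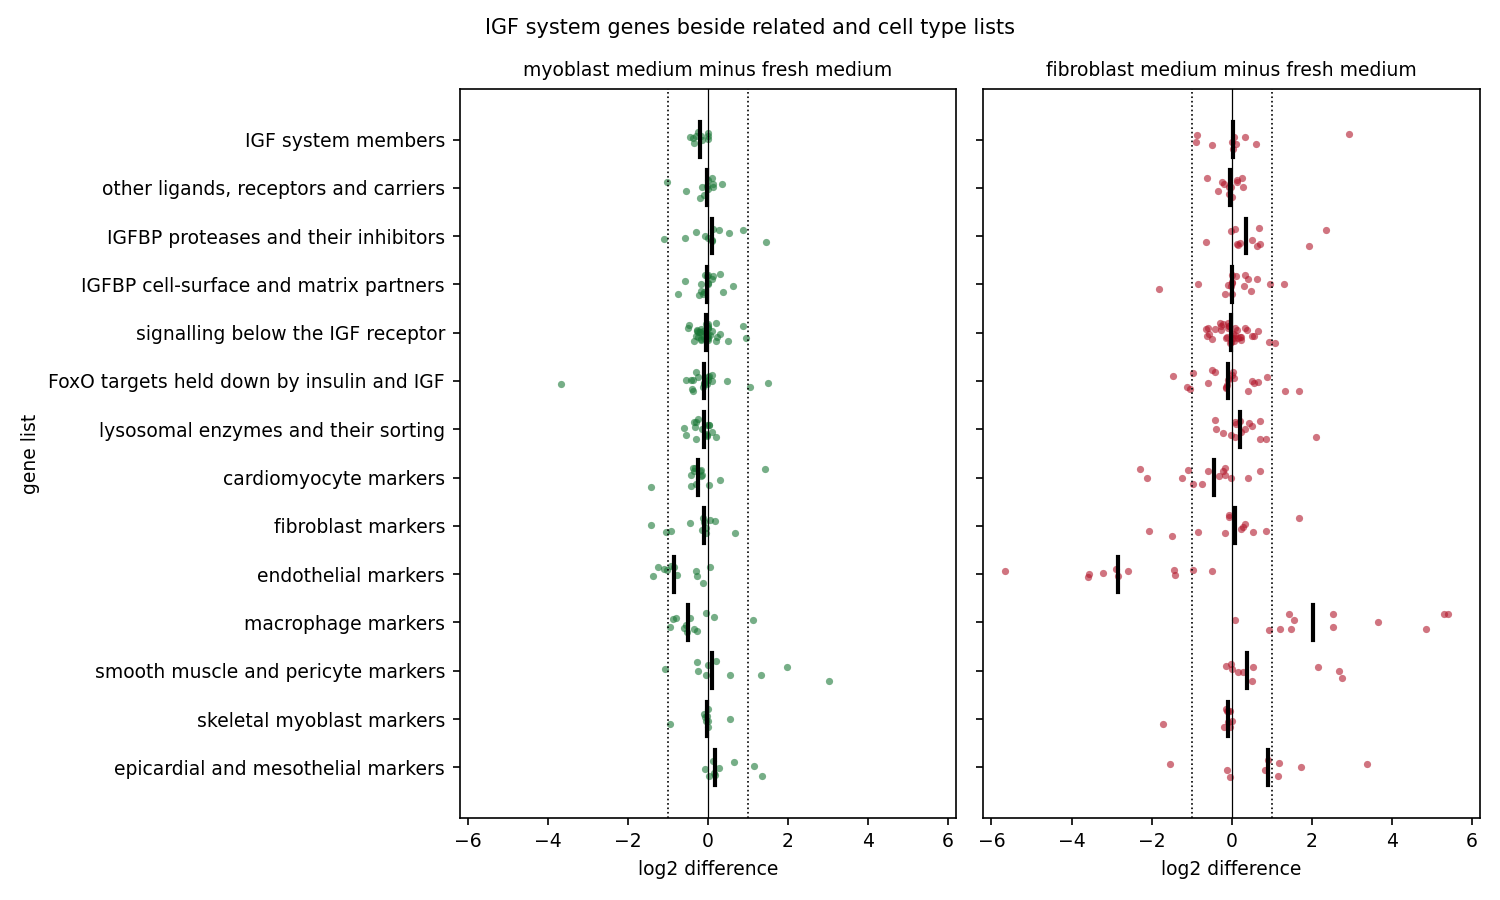
Log2 differences of single genes (points) and list medians (black bars) for the IGF system genes, related lists and cell type markers, with myoblast minus fresh medium on the left and fibroblast minus fresh medium on the right; dotted lines mark 2-fold and vertical scatter within a list carries no value. The IGF system medians of -0.20 and 0.04 lie near 0, whereas the endothelial median is -2.83 and the macrophage median 2.04 in fibroblast minus fresh medium.

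Among cell type markers, those furthest above fresh medium on the fibroblast array were the macrophage genes Adgre1 (5.41), Fcgr2b (5.30), Lyz2 (4.85) and Cd14 (3.65). Furthest below it were the endothelial genes Emcn (-5.65), Cldn5 (-3.58), Nos3 (-3.56) and Sox18 (-3.22). The cardiomyocyte genes past 2-fold there were Myl7 (-2.30), Myh6 (-2.11), Ryr2 (-1.23) and Tnni3 (-1.09). Of the fibroblast markers Thy1 was at 1.69, Fbln1 at -2.07 and Pdgfra at -1.48. The smooth muscle genes Tagln (2.75), Cnn1 (2.69) and Acta2 (2.17) were higher, as were Krt18 (3.38), Msln (1.72), Lrrn4 (1.19) and Upk1b (1.16) among epicardial and mesothelial markers, where Krt19 was at -1.53. The muscle creatine kinase gene Ckm, at -1.71, was the only one of 9 skeletal myoblast markers past 2-fold, where 2.60% of all genes were that much lower. Myh8, among the 9, was blank throughout.

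Under myoblast medium the endothelial markers had a median difference of -0.84 from fresh medium, and 4 of 11 were 2-fold lower or more and 0 higher, namely Emcn (-1.38), Pecam1 (-1.23), Esam (-1.10) and Tie1 (-1.03). The macrophage median was -0.48, and 1 of 12, Fcgr2b at 1.13, was 2-fold higher and 0 lower. For cardiomyocyte markers the median was -0.24, with 1 of 14 higher, Myh7 at 1.43, and 1 lower, Mb at -1.42. For fibroblast markers it was -0.10, with 0 of 12 higher and 2 lower, Pdgfra at -1.42 and Fbln1 at -1.03. The skeletal myoblast median was -0.03 and 0 of 9 passed 2-fold. Of the defining genes Myog was at -0.04, and Myod1 was blank on both arrays, which gave its 0.00. For smooth muscle and pericyte markers the median was 0.10, with 3 of 10 higher, Cnn1 at 3.02, Acta2 at 1.98 and Tagln at 1.33, and 1 lower, Rgs5 at -1.06. For epicardial and mesothelial markers it was 0.18, with 2 of 9 higher, Krt19 at 1.34 and Krt18 at 1.17, and 0 lower. These counts stand against 1.35% of all genes 2-fold higher and 0.844% lower. Their part in the values of the 10 genes was not tested.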

How the data were processed

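Total RNA from the 3 cultures was prepared with a column kit, labelled with biotin and hybridised to 1 Affymetrix 3′ array per medium, per the labels' protocols. RMA is named in the submitters' processing notes, without software or settings. The deposited values are log2 values centred by probe set: of 31099 probe sets, 17117 had values on 2 arrays, always 1 above and 1 below 0, 8002 had 1, 5980 had none and 0 had 3. RMA is the ground for log base 2, which is not stated, and the probe sets with 2 values are the ground for centring. Blanks were read as 0, an assumption.

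The platform annotation, which is dated, gave 20832 probe sets 1 symbol, 436 several, and did not name 9831. Entrez IDs matched 20764 probe sets to current RefSeq symbols (GRCr8). Single-symbol probe sets of a gene were averaged, without a filter. Differences of log2 values between arrays were computed and counted at 2-fold. The steps were tested on simulated data. Python 3.11.15, NumPy 2.4.6 and pandas 2.3.3 were used.

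Members and lists were chosen with earlier results of these data known. Named were all members, list genes past 2-fold (up to 4 a direction; for cell type markers only against fresh medium), all other ligands, receptors and carriers, and the 3 genes nearest to each of the 2 members with the widest range. A few others, such as Itgb1, Itgb3, M6pr, Myod1 and Myog, were named after their values were seen. Other probe set rules, array centring and thresholds were tried.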

Additional observations from a re-analysis of the deposited data

How the results depend on the processing

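With the probe set of the widest range in place of the mean, the count of the 10 genes past 2-fold was 1 for myoblast against fresh medium (Igfbp5 lower), where 2.75% of all genes passed, 2 for fibroblast against fresh medium (Igfbp2 higher, Igfbp5 lower), where 9.11% did, and 2 for myoblast against fibroblast medium (Igf2r higher, Igfbp2 lower), where 8.05% did. At 1.5-fold the counts were 4 and 4 for the comparisons with fibroblast medium, and 0 for myoblast against fresh medium, as at 2-fold. The counts were as reported under the median of probe sets, without probe sets whose IDs end in _x_at, _s_at or _a_at, with probe sets restricted to those filled on 2 arrays (8 genes), with each array centred on its median, which changed no value, and at 3-fold. Over these alternatives the median difference ran from -0.27 to -0.16 for myoblast minus fresh medium, from 0.03 to 0.19 for fibroblast minus fresh medium and from -0.46 to -0.26 for myoblast minus fibroblast medium. Of the differences of single genes recomputed, 69 were of genes with several probe sets and under alternatives other than array centring. A large part of these could not change either, since the median of 2 probe sets is their mean. The 2 filters also left all probe sets of Igf1r, Igf2r and Igfbp3 in place, and that for values on 2 arrays those of Igf1. Of the 69, 64 moved by less than the SD of the control transcripts, which therefore does not measure stability. That SD was pooled over 2 kinds of control with different offsets, and 15 moved by at least the smaller SD of the kinds taken alone. The 5 past the pooled SD were Igf1 at 0.45 for fibroblast minus fresh medium with the widest range and 4 of Igfbp5. For myoblast minus fresh medium Igfbp5 was at -0.14 with the median of its probe sets, -1.69 with the widest range and -0.73 with values on 2 arrays, and for fibroblast minus fresh medium it was at -1.94 with the widest range. Igfbp2, with 1 probe set, had 1 value under all of them. Shares of all genes rose when only probe sets filled on 2 arrays were kept. For fibroblast against fresh medium 10.8% of all genes were then past 2-fold in either direction, against 6.85% with all probe sets. The shares were 3.44% against 2.19% for myoblast against fresh medium, and 9.63% against 6.06% for myoblast against fibroblast medium. No paired analysis was possible because each medium had 1 array, and no array could be left out.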
